A study of Homo sapiens with 4 samples.

Results

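The γH2AX landscape of unchallenged SK-UT1 cells was described from 1 chromatin immunoprecipitation and sequencing (ChIP-seq) library, that of cells given only the vehicle, 0.1% DMSO. Its members were all rows of the deposited peak list on chromosomes 1 to 22 and X, with rows that overlapped or touched merged into 1 peak, which gave 72858 peaks of the 209276 in the 4 lists of the study. SK-UT1 is a human cancer line of uterine leiomyosarcoma, a tumour type that arises in smooth muscle. The other 3 libraries came from the same line given 1 µM OTS186935, an inhibitor of the histone methyltransferase SUV39H2 (59710 peaks), 0.5 µM doxorubicin, a topoisomerase II poison (47495 peaks), or both of these drugs at the same doses, called the combination (29213 peaks). The series title names a PARP inhibitor as the partner drug, while the sample labels and design text name doxorubicin, which is followed here. The treated libraries serve here only to ask whether a DMSO peak or dense region recurred. All 4 groups are 1 cultured line with 1 library each, so no difference between conditions was tested, and the intervals given are exact 95% binomial or Poisson intervals that cover counting error only.

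H2AX is a variant of histone H2A that sits throughout chromatin, and γH2AX is its form phosphorylated on the serine near the carboxyl end. The kinases ATM, ATR and DNA-PK lay the mark down around DNA double-strand breaks and stalled replication forks, where it spreads over long stretches and holds the repair mediator MDC1. Dividing tumour cells carry some of the mark without any added drug. A peak is a place where the precipitated fragments exceeded those of its surroundings, and its summit is the base with most fragments. A broad, even gain would therefore raise the surroundings as well as the peak, and such gains are not measured by these lists.

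Sequences are shown for 5 promoters with a DMSO summit inside, to let the base composition under a baseline summit be seen next to its values. The RefSeq promoter windows run from 250 bases before to 50 bases after the gene start (GRCh38.p14), and capitals mark each CG pair. SHANK3 and SLC6A13 are the genes named below for dense or wide peaks that had such a summit. CETN1, SLC5A1 and TKTL2 were picked after their values were seen, as the 3 windows of highest DMSO fold whose peak overlapped a peak in all 3 other lists.
SHANK3: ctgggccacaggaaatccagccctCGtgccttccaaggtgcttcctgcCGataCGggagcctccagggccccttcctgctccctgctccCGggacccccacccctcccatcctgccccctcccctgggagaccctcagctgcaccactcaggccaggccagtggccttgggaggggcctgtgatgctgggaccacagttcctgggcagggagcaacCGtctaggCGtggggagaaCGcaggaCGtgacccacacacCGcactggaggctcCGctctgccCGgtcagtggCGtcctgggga
SLC6A13: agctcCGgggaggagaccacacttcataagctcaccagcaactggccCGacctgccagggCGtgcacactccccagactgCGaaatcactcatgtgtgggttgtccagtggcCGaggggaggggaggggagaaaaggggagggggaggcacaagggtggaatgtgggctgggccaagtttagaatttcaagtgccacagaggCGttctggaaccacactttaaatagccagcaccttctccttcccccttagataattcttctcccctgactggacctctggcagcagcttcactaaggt
CETN1: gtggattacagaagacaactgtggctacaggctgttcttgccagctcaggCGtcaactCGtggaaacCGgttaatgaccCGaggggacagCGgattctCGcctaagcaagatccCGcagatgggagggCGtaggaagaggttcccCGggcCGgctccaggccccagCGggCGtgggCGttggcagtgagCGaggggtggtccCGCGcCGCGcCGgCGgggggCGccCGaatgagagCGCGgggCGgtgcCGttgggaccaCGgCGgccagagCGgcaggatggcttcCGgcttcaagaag
SLC5A1: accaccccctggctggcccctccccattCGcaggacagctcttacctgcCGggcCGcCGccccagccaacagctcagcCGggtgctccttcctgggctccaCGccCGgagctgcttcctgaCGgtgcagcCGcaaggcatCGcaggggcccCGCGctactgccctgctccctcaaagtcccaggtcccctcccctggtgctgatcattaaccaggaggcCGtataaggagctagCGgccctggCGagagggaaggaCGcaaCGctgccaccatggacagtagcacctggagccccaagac
TKTL2: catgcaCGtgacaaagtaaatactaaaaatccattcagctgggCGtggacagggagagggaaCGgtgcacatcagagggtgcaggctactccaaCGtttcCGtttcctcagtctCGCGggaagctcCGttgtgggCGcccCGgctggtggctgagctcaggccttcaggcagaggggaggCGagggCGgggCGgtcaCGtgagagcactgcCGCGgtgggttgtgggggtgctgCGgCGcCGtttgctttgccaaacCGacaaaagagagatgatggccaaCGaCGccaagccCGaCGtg
The SHANK3 window (chr22:50672573-50672872, plus strand) serves a scaffold protein of excitatory synapses and holds 12 CG pairs. Its DMSO summit lay 97 bases before the start, with a pileup of 51 fragments over a local background of 15.3 and a fold of 3.19. The SLC6A13 window (chr12:262787-263086, minus strand), of a GABA transporter gene, holds 6 CG pairs, and its summit had 7 fragments over a background of 0.530 and a fold of 5.23. The fold is a ratio to the surroundings, so the window with fewer fragments had the higher fold. The SHANK3 peak overlapped a peak in all 3 other lists, and the SLC6A13 peak overlapped one with OTS186935 and with the combination but not with doxorubicin. The window of CETN1 (chr18:580130-580429, plus strand), which encodes a centrin, holds 30 CG pairs and had 22 fragments and a fold of 9.75. The window of SLC5A1 (chr22:32043011-32043310, plus strand), which encodes a sodium-coupled glucose transporter, holds 17 CG pairs and had 19 fragments and a fold of 9.56. The window of TKTL2 (chr4:163473705-163474004, minus strand), a transketolase-like gene, holds 24 CG pairs and had 15 fragments and a fold of 9.44. These 3 summits lay between 39 and 14 bases before their gene starts.

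The baseline peaks were short and mostly weak. They covered 39.5 Mb, or 1.30% of the chromosomes, with a median width of 465 bp, quartiles of 385 and 618 bp and extremes of 331 and 3012 bp. Peaks within 50 bp of the shortest width made up 23.5%, while 3693 peaks (5.07%) were over 1 kb and 52 were over 2 kb. The widest 10% held 19.9% of the covered length. At the summit, the pileup solved from the fold and p-value columns had a median of 8 fragments, a 99th percentile of 28 and a maximum of 109. The surrounding background had a median of 0.712 fragments, and 33.1% of the peaks sat at its lowest value, 0.454. A −log10 q of 5 or more was reached by 18655 peaks.

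The widest peaks lay close to the chromosome ends. Of the 10 widest, 8 were within 1 Mb of an end and 9 overlapped a peak in each of the 3 other lists. The widest, 3012 bp at chr12:154964-157975, lay inside IQSEC3, an exchange factor for ARF GTPases at synapses, with a fold of 2.70 over a background of 24.9 fragments. Others lay in PARD6G, a cell polarity gene (2787 bp), in AHRR, the repressor of the aryl hydrocarbon receptor (2730 bp), in SHANK3 (2721 bp) and in DYNC2I1, a dynein intermediate chain of cilia (2602 bp). The SHANK3 peak stood on the highest background of the list, 36.4 fragments. A peak of 2472 bp near PCMTD2 had the highest fold of the 10, 9.30, with a −log10 q of 34.2. The 2 wide peaks far from an end covered parts of LRCH2 and RBMXL3 on the X chromosome (2907 bp) and of ZNF629, a zinc finger gene (2595 bp), and the ZNF629 peak overlapped a peak with doxorubicin alone.

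The peaks were crowded. Neighbouring summits were a median of 15.9 kb apart, against 26.3 kb for the same number of points per chromosome at an even density, a calculated yardstick without any test. The ratio of these medians was 0.606, and the other lists had 0.595 for OTS186935, 0.643 for doxorubicin and 0.634 for the combination. Distances of up to 10 kb made up 33.6% where an even density would give 23.8%. At the far end, 251 distances were over 500 kb, 0.345% against 0.0176% for an even density, and 44 were over 1 Mb, assembly gaps included.

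The excess of short distances had a gap in it. Distances from 5 to 10 kb made up 22.1% (even density, 11.0%). In steps of 0.5 kb there were 1576 distances at 1 to 1.5 kb, 2.16% against 1.33% for an even density, and 1145 at 1.5 to 2 kb, 1.57% against 1.31%. The number was 688 at 4 to 4.5 kb, 0.945% against 1.21%, and came to 1570 at 5 to 5.5 kb and 1845 at 5.5 to 6 kb. Below 1 kb the merging of rows and the peak width limit the distances, the shortest of which was 477 bp. The same dip below 5 kb stood in all 4 lists. The solved backgrounds of the DMSO list between its floor and 1.5 fragments were whole multiples of 0.5 times 0.0331 fragments, within 0.1 of that step, in 100% of 28328 values. That unit is 331 bp, the width of the shortest DMSO peak, over a window of 10 kb, which reaches 5 kb to either side of a summit. In the other lists the unit was likewise taken from the shortest peak, 323 bp with OTS186935, 295 bp with doxorubicin and 296 bp with the combination. By that measure 40.4%, 29.9% and 89.8% of values fitted in the same order, so the window was read from the DMSO list alone. Whether the assumed unit or the window failed to fit there was not tested. The median background was 1.76 fragments where the nearest summit lay within 5 kb, 0.878 at 5 to 10 kb, 0.596 at 10 to 20 kb and 0.454 beyond. Backgrounds were thus higher where a neighbour lay inside such a window, and its part in the dip was not tested.

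**Figure D1:**
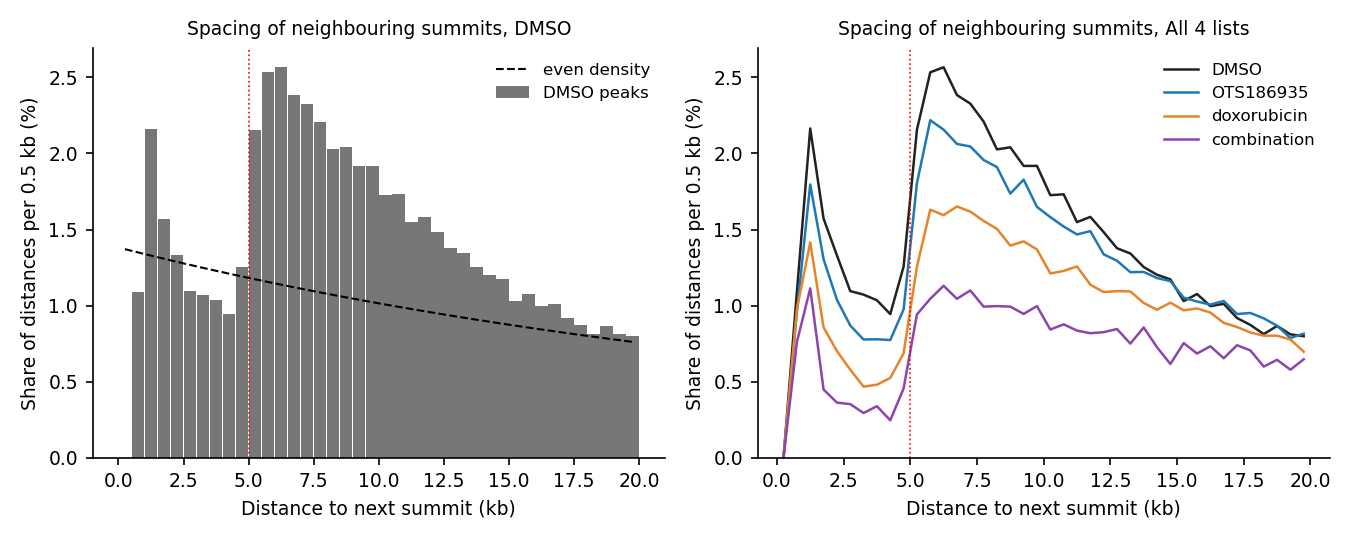
Distance from each summit to the next on the same chromosome, in steps of 0.5 kb, as a share of all distances. The left panel shows the DMSO list as bars and an even density as a dashed line, the right panel the 4 lists as lines, and the dotted line marks 5 kb; the DMSO bars dip to 688 distances at 4 to 4.5 kb before the step to 1845 at 5.5 to 6 kb.

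Runs of neighbouring summits no more than 10 kb apart were called clusters. Single peaks made up 47.5% of the list, and the other 52.5% lay in 13733 clusters. Clusters of 5 or more peaks numbered 1228 and held 10.7% (interval 10.5 to 11.0%), a share that depends on the distance allowed, at 0.294% with 5 kb and 41.2% with 20 kb. Clusters of 10 or more numbered 88 and held 1.57%. Of these 88, 57 lay in the outermost 5 Mb at either end of a chromosome, which held 17.0% of all DMSO peaks, and 73 overlapped a protein-coding gene. The median background was 4.37 fragments in clusters of 10 or more and 0.454 at single peaks, and the part of background in cluster size was not tested.

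The 10 largest clusters held 17 to 41 peaks, and 9 of them were in the outermost 5 Mb. The largest had 41 peaks over 194 kb (chr18:79694068-79887693), a mean spacing of 4.84 kb, across CTDP1, a phosphatase of the RNA polymerase II tail, and KCNG2, a potassium channel subunit. The same span held 36 summits under OTS186935, 26 under doxorubicin and 16 under the combination. A cluster of 26 peaks (chr12:154368-242725) ran through IQSEC3 and the transporter genes SLC6A12 and SLC6A13, where the other lists had 23, 19 and 14 summits in the order just given. A cluster of 25 peaks (chr2:241925435-242022382) overlapped no protein-coding gene, and 10 of its peaks overlapped a peak in all 3 other lists. Clusters of 23 peaks crossed QTGAL and METRNL on chromosome 17 and LOC105375116 on chromosome 7. VIPR2, a receptor for vasoactive intestinal peptide, carried a cluster of 18 peaks of which 12 recurred in all 3 lists. The cluster over TBCD, a tubulin-folding cofactor, and QTGAL also had 18 peaks, of which 1 did so. The only large cluster away from an end, 19 peaks over RP1L1, C8orf74 and SOX7 on chromosome 8, had a median background of 1.62 fragments, below the 7.63 to 19.3 of the 9 others, and 8, 8 and 7 summits with OTS186935, doxorubicin and the combination.

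On the scale of 1 Mb, peak density was broad and uneven. Over 2848 full bins that held a summit in any list, DMSO summits had a median of 17 per bin, quartiles of 9 and 36, a 90th percentile of 60 and a maximum of 133, and 4 bins had none, where a count of 0 allows up to 3. The variance was 18.8 times the mean, where an even density gives about 1. That ratio was 1.05 in bins of 10 kb, 3.13 in bins of 100 kb and 66.6 in bins of 5 Mb. Where density is uneven, the ratio depends on bin size. The top 10% of bins held 29.4% of the summits and the lower 50% held 18.4%. Neighbouring bins were alike: Spearman's rho between a bin and the next was 0.642 (2798 pairs), 0.302 for bins 5 Mb apart and 0.122 for bins 20 Mb apart, as a description over bins of 1 library.

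Hot bins were those at or above the 99th percentile, 89 summits. There were 30 of 2848 (1.05%), holding 4.24% of the DMSO summits in these bins, with 2 bins at 89 just inside and 2 at 88 just outside. Of these, 21 lay in the outermost 5 Mb, where 7.20% of all bins lie. The 2 kinds of hot bin differed in their genes: the 21 terminal bins had a median of 9 protein-coding genes (range 4 to 46), and the 9 interior ones a median of 32 (range 8 to 49), while the median over the bins that were not hot was 4. Chromosome 19 held 6 hot bins and chromosome 22 held 3. The median background of the bins was 3.04 fragments in hot bins and 0.454 in the rest.

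The densest bin, the last full Mb of chromosome 11 (chr11:134000001-135000000), had 133 DMSO summits. Its genes with most of them were GLB1L2 (9), GLB1L3 (8), B3GAT1 (6) and NCAPD3 (5), which encodes a condensin II subunit. Most summits of the bin thus lay outside these genes. The bin had 124 summits under OTS186935, 106 under doxorubicin and 69 under the combination. The first Mb of chromosome 5, with AHRR, PLEKHG4B and the sodium/proton exchanger gene SLC9A3, had 131 DMSO summits. The first Mb of chromosome 7, with PRKAR1B, a regulatory subunit of protein kinase A, and FAM20C, a kinase of secreted proteins, had 125. The bin of ATP9B, KCNG2, CTDP1 and NFATC1 on chromosome 18 had 120, and that of PTPRN2, DYNC2I1, ESYT2 and NCAPG2 on chromosome 7 had 118. The next 4 were the bins of TBCD, CCDC57 and FOXK2 on chromosome 17 (117), of SNED1, FARP2, MTERF4 and D2HGDH (109) and of SH3YL1, TMEM18 and ALKAL2 (108) at the opposite ends of chromosome 2, and of DLGAP2, ARHGEF10 and KBTBD11 on chromosome 8 (106). The tenth, of MYO9B, UNC13A, KCNN1 and FCHO1 on chromosome 19 (104), held 33 protein-coding genes and was the only one of the 10 in a chromosome interior. The genes name the bins and held varying shares of their summits: SH3YL1, TMEM18 and ALKAL2 had 5, 3 and 1 DMSO summits. PTPRN2 had 128 and DLGAP2 had 112 over their whole bodies, which pass the bin edges.

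**Figure D2:**
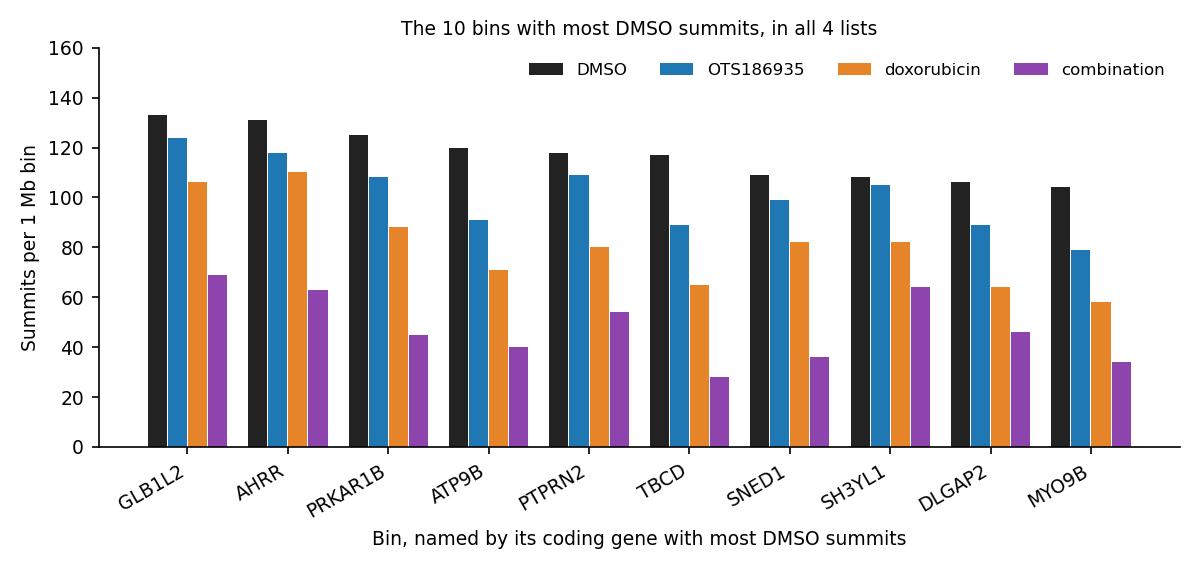
Summits per 1 Mb bin in the 10 bins with most DMSO summits, each named by its protein-coding gene with most DMSO summits over the whole gene body. Bars give the DMSO, OTS186935, doxorubicin and combination lists. DMSO counts run from 133 to 104 and are the highest of the 4 lists in each bin, in a list that is also the longest.

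Each other list was asked for its own bins at the 99th percentile. With OTS186935, 32 bins (1.12%) passed and 21 of the 30 DMSO hot bins were among them, 70.0% of the DMSO bins and 65.6% of the OTS186935 bins. With doxorubicin, 32 bins (1.12%) passed and shared 22, 73.3% of the DMSO bins and 68.8% of the doxorubicin bins. With the combination, 38 bins (1.33%) passed and shared 16, 53.3% of the DMSO bins and 42.1% of the combination bins. There were 14 DMSO hot bins that passed in all 3 lists, among them 9 of the first 10, with TBCD's bin missing in the combination alone. The 4 that passed in none were all interior and rich in genes: the bin of POLR2F and TRIOBP on chromosome 22, with 103 DMSO summits, and 3 on chromosome 19, of GRAMD1A and HPN (101), of CRTC1 and ELL (100) and of DNM2 and DNMT1 (92). Even so, no DMSO hot bin was below the 92.3rd percentile of another list. Over all 2848 bins, Spearman's rho between the DMSO counts and those of another list was 0.944 under OTS186935, 0.935 under doxorubicin and 0.906 under the combination, as a description of lists that share a genome, a line and a protocol.

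Bins with more genes had more baseline peaks. Spearman's rho between protein-coding genes and DMSO summits was 0.705 over 2848 bins. The median was 8 summits in the 341 bins without a protein-coding gene, 10 with 1 or 2 genes, 15 with 3 to 5, 25 with 6 to 10, 43 with 11 to 20 and 60 with over 20. The relation was looser at the chromosome ends: rho was 0.403 over 205 bins of the outermost 5 Mb and 0.715 over the 2643 others. Terminal bins with 3 to 5 genes had a median of 54 summits, about as many as interior bins with over 20 genes, at 58, and interior bins with 3 to 5 genes had 15.

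**Figure D3:**
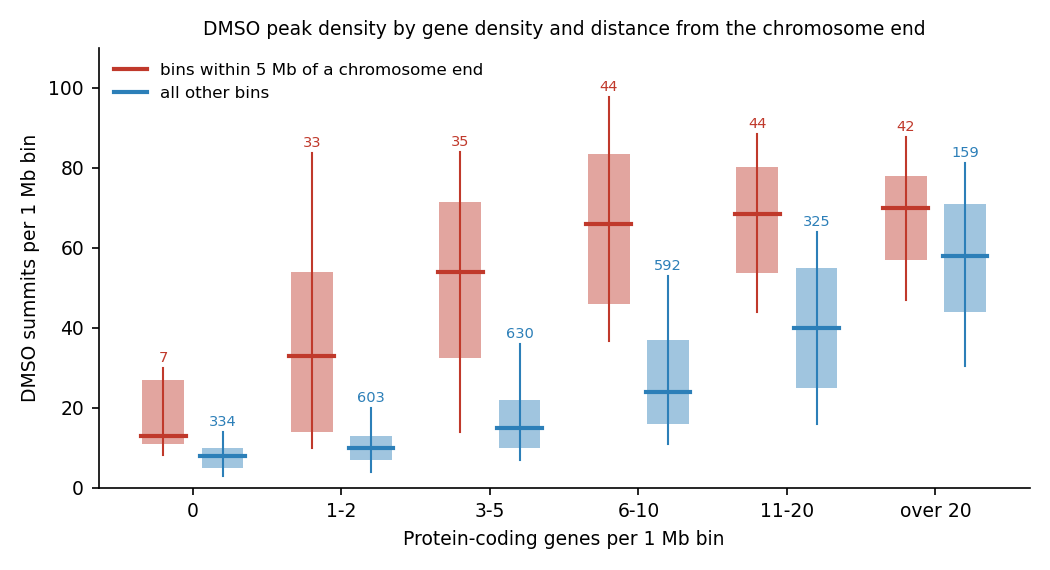
DMSO summits per 1 Mb bin by the number of protein-coding genes in the bin, for bins in the outermost 5 Mb of a chromosome and all other bins. Lines are medians, boxes quartiles, whiskers the 10th and 90th percentiles and figures the number of bins; terminal medians exceed interior ones in every class, by 54 to 15 at 3 to 5 genes and by 70 to 58 at over 20.

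Some bins went against the relation. Among bins with over 20 genes, the fewest DMSO summits, 2, lay in the bin of the defensin and FAM90A genes on chromosome 8 (42 genes), followed by 5 in a bin of USP17L genes on chromosome 4, and 7 each in the NBPF9 and NOTCH2NLC bin of chromosome 1 and an olfactory receptor bin of chromosome 11. Defensin, FAM90A, USP17L and NBPF genes stand in near-identical copies, where reads cannot be placed with certainty, so these low counts are uncertain. Among bins without a protein-coding gene, the highest counts were 36 on the X chromosome and 35 on chromosome 8.

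Protein-coding gene bodies took more than their share of the peaks. Of the DMSO summits, 57.1% (interval 56.8 to 57.5%) lay in bodies that make up 41.6% of the chromosomes. That was 3.30 summits per 100 kb inside against 1.77 outside. The chromosome length includes assembly gaps, which lower the outside value, and 172 of 3020 full 1 Mb bins held no summit in any list. At least 1 summit lay in 13410 of 19970 genes (67.2%). This share followed gene length, at 39.9% for genes under 10 kb, 69.3% at 10 to 50 kb, 86.6% at 50 to 200 kb and 97.2% over 200 kb. The density ran the other way, with 9.93, 5.56, 3.67 and 2.02 summits per 100 kb in the same classes.

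Within genes the summits gathered just inside the start. Around the starts of the 15811 genes whose strand the reference gives, chromosome 8 not included, DMSO summits reached 254 per kb per 1000 genes at 250 to 500 bp downstream, 6.80 times the 37.3 found at 3 to 5 kb from the start. The first 1 kb downstream held 3112 summits and the 1 kb upstream held 1184. A summit lay within 1 kb of the start in 4193 genes (26.5%). At gene ends the profile dipped: 24.0 summits per kb per 1000 genes lay in the 250 bp past the end, against 51.3 at 3 to 5 kb and a maximum of 78.9 between 1750 and 1500 bp before it. The other lists also had their maximum in the first 500 bp after the start, 162 at 250 to 500 bp under OTS186935, and, nearer the start at 0 to 250 bp, 121 under doxorubicin and 88.8 under the combination.

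**Figure D4:**
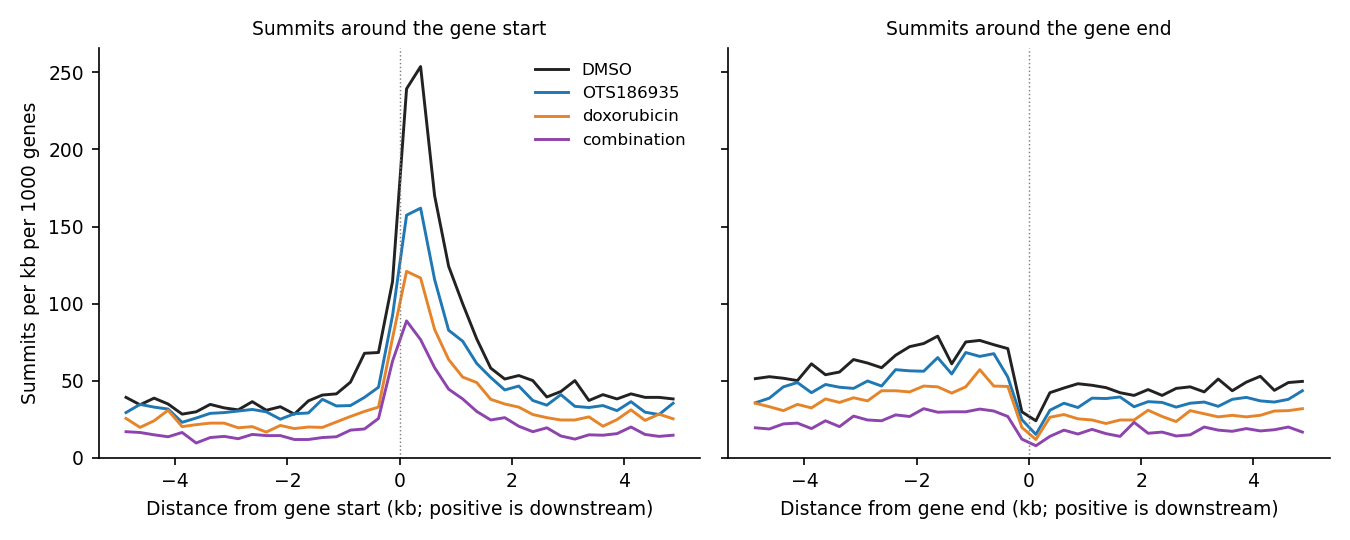
Summits per kb per 1000 genes in steps of 250 bp around the start (left) and end (right) of 15811 protein-coding genes, for the 4 lists. The DMSO line peaks at 254 between 250 and 500 bp after the start and dips to 24.0 in the 250 bp after the end.

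The maximum lay past the start, and the 300-base promoter windows lie mostly before it. Even so, the 250 bp before the start held 114 DMSO summits per kb per 1000 genes, above the 37.3 at 3 to 5 kb. Of 15811 windows, 629 (3.98%) held a DMSO summit, of which 163 belonged to peaks that overlapped a peak in all 3 other lists and 190 to peaks that overlapped none. Windows with few CG pairs held one least often: 0.714% (interval 0.431 to 1.11%) of windows with 0 to 4 pairs. The share was 5.07% with 5 to 9, 5.54% with 10 to 19, 5.19% with 20 to 29 and 3.50% (2.99 to 4.06%) with 30 or more. The CG-poor class had the lowest share in each of the 3 other lists too, 0.714% under OTS186935, 0.677% under doxorubicin and 0.150% under the combination. The median GC content was 65.7% in windows with a summit and 62.3% in those without. How fragments of different GC content were recovered was not tested. On either strand, the letters GGGCGG of the GC box stood in 64.2% of windows with a summit and in 58.2% of all windows, CCAAT in 27.2% and 36.4%, the TATA-box letters TATAAA in 5.88% and 9.83%, and TGANTCA, the AP-1 motif, in 3.98% and 5.75%. No 2 of these motifs share a common stretch that would make 1 imply another, and a match is only a description.

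Genes of 10 kb or longer with 4 or more DMSO summits numbered 3464 of 14315 (24.2%), and they were ranked by summits per length of body. The first was SCART1, a scavenger receptor family gene at chr10:133453945-133469760, with 7 DMSO summits in 15.8 kb, 44.3 per 100 kb (interval 17.8 to 91.2), and 5, 4 and 4 summits with OTS186935, doxorubicin and the combination. FKBP8, an immunophilin of the outer mitochondrial membrane, had 5 DMSO summits, against 2, 1 and 1. SCRT2, a zinc finger repressor, had 5 DMSO summits, against 2, 3 and 2, and ELK1, a transcription factor that acts with SRF downstream of MAP kinases, had 5, against 2, 3 and 0. The other 11 had 4 DMSO summits each: CCDC183, PRRT4, SYTL1, ASB10, BCAM, a laminin-binding adhesion molecule, DAPK3, a kinase that acts on myosin in smooth muscle, IRF5, an interferon regulatory factor, RPS6KA4, a nuclear kinase of histone H3, MAPK8IP2, a scaffold of the JNK pathway, N4BP3, and MMP25, a membrane-bound metalloproteinase, at 28.2 per 100 kb. All 15 were under 20 kb long, and a count of 4 carries an interval of 1.09 to 10.2, so their order is not resolved. The next gene, SART1, had 27.2 per 100 kb. The 15 genes together had 66 DMSO summits, and 35, 30 and 18 in the same order of lists; they were picked for high DMSO counts, so the lower sums elsewhere are no comparison.

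Longer genes gave firmer densities, mostly at chromosome ends. Between 50 and 200 kb, the densest were SHANK3 (14 summits, 23.2 per 100 kb, interval 12.7 to 38.9), AHRR (27), MYT1, a zinc finger transcription factor of neural cells (18), SLC9A3 (11) and IQSEC3 (22), and all 5 lie in the outermost 5 Mb. Their median local backgrounds were 12.8 to 19.4 fragments. IQSEC3 had 24 summits under OTS186935, 20 under doxorubicin and 15 under the combination, and SLC9A3 had 6, 9 and 1. Over 200 kb, the densest were TSPEAR (28 summits, 13.1 per 100 kb), DIP2C (54), CACNA1B, the pore subunit of a neuronal calcium channel (31), PTPRN2 (128) and CMIP (32), and 4 of these 5 were terminal. TSPEAR's body also holds keratin-associated protein genes. PTPRN2, a receptor-type phosphatase relative found in secretory granules, had more DMSO summits than any other gene, 12.2 per 100 kb (interval 10.2 to 14.5) over 1049 kb, with 107 summits under OTS186935, 82 under doxorubicin and 57 under the combination. Of its 128 DMSO peaks, 97 overlapped a peak of at least 1 other list and 27 a peak of all 3.

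The genes that write, read and erase the mark were not rich in peaks. Of 39 genes of H2AX damage signalling, 29 (74.4%) had a DMSO summit, at 2.72 per 100 kb of body, beside 67.2% and 3.35 per 100 kb over all protein-coding genes. Their median length was 61.7 kb, and over all genes of 50 to 200 kb the values were 86.6% and 3.67 per 100 kb. H2AX itself had 1 summit, within 1 kb of its start, also present as 1 summit with OTS186935 and with doxorubicin and as 0 with the combination. BRCA1, a repair gene, had 9 DMSO summits, against 6, 6 and 2. All 11 genes of H2AX kinases and phosphatases, with a median length of 81.9 kb, had a summit, at 2.51 per 100 kb. ATM had 3 (0 with OTS186935, 1 with doxorubicin, 0 with the combination), ATR had 4 (2, 3 and 1) and PRKDC, the catalytic subunit of DNA-PK, had 8 (5, 3 and 3). BAZ1B, also known as WSTF, which phosphorylates a tyrosine of H2AX, had 5 (2, 3 and 1), and the tyrosine phosphatases EYA1 and EYA3, which remove that mark, had 3 each. Among serine phosphatase genes, PPM1D had 1 summit, against 3, 2 and 1, and PPP4C, PPP4R2, PPP2CA and PPP6C had 1 each.

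Very long genes, those prone to breakage among them, were sparsely covered. All 27 genes at common fragile sites, regions that break under replication stress, had a DMSO summit, as nearly all genes over 200 kb did. The density of these fragile-site genes was 0.985 per 100 kb, beside 2.02 over all genes over 200 kb. Their median length was 1380 kb, and density fell with gene length over the classes given above. The class over 200 kb is therefore not matched to them in length, and the part of length was not tested. WWOX had 18 DMSO summits (1.62 per 100 kb), NAALADL2 had 20 (1.46), and CTNNA1, which encodes α-catenin, had 9 (4.96). The 25 long neural genes, with a median length of 1118 kb, had 0.959 per 100 kb. Among them were OPCML with 34 summits and AUTS2 with 27. The fragile-site genes held 355 summits in the DMSO list, 257 under OTS186935, 233 under doxorubicin and 115 under the combination.

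Short, inducible genes had higher densities. Of 28 immediate early genes, which respond within minutes to growth signals, 26 had a DMSO summit in their bodies of 4.35 kb in the median, where genes under 10 kb had one in 39.9% of cases, and their density was 13.9 per 100 kb beside 9.93 for that class. Among the 21 whose strand is known, 10 had a summit within 1 kb of the start, where 26.5% of all genes did. JUN and FOS, the partners of the AP-1 factor, had 2 DMSO summits each. JUN had 1 in each other list and FOS had none, and JUNB had 1 DMSO summit, against 1, 1 and 0. In all, 18 of the 28 had a summit under OTS186935, 15 under doxorubicin and 11 under the combination, lists in which 33.1%, 26.5% and 18.1% of all genes under 10 kb had one.

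The other families varied. A DMSO summit lay in 19 of 20 smooth muscle genes, at 4.07 per 100 kb of their pooled bodies. Their median length was 32.9 kb. All genes of 10 to 50 kb had 69.3% and 5.56 per 100 kb, and all genes of 50 to 200 kb had 86.6% and 3.67 per 100 kb. Long members weigh most in a pooled density, so neither class is a full match for the smooth muscle genes. Among them were CNN1, the calponin of smooth muscle (3 summits, against 0, 1 and 0), DES, which encodes desmin (2, against 3, 2 and 2), and SYNM, an intermediate filament gene (6, against 4, 3 and 5); a peak list does not measure expression and does not check the cell type. Of 390 olfactory receptor genes, 43 (11.0%) had one, where 39.9% of all genes under 10 kb did, and 18 of 312 had one within 1 kb of the start, where 26.5% of all genes did. Of 69 replication-dependent histone genes, 19 (27.5%) had one in bodies of 0.494 kb in the median, at 17.0 per 100 kb, the highest density of the lists described. Over all genes under 10 kb the values were 39.9% and 9.93 per 100 kb, but that class is not matched to such short bodies. Within 1 kb of the start, 25 of 64 histone genes had one, where 26.5% of all genes did. Of 245 zinc finger genes of chromosome 19, with a median length of 23.1 kb, 155 (63.3%) had one, at 3.89 per 100 kb. Both values were below the 69.3% and 5.56 per 100 kb of all genes of 10 to 50 kb. Genes of any length had 67.2% and 3.35 per 100 kb. The 53 clustered protocadherins had 8.14 per 100 kb, but their bodies overlap, so that 1 summit counts for several of them. Histone, olfactory receptor, zinc finger and protocadherin genes have near-identical relatives, and reads may be split among them.

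Recurrence in the other lists was partial. Of the 72858 DMSO peaks, 44.4% (interval 44.1 to 44.8%) overlapped a peak with OTS186935 by at least 1 bp, 35.1% (34.7 to 35.4%) with doxorubicin and 23.6% (23.3 to 23.9%) with the combination. Peaks found in all 3 numbered 8974 (12.3%), and 29252 (40.1%) were found in none. These shares fall in the order of the lengths of the lists. With each list, DMSO included, held to its strongest 29213 peaks, the shares were 42.9%, 40.3% and 35.8%. The differences between lists were smaller there. The DMSO peaks compared were then stronger ones, while the combination list, already of that length, stayed whole. The parts of list length and peak strength were not tested apart.

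Width and strength went with recurrence most closely. Among the narrowest 25% of DMSO peaks, 26.3% recurred under OTS186935, 19.5% under doxorubicin and 12.0% under the combination, and among the widest 25% 69.4%, 57.5% and 42.0% did. By strength the shares were 25.6%, 17.7% and 10.4% at a −log10 q of 1 to 2, and 82.2%, 75.7% and 60.2% above 10. A wider interval also meets another by overlap more readily. Dense places differed less, and not in 1 direction once strength was matched. Over all strengths, peaks in clusters of 10 or more recurred in 65.4%, 50.7% and 31.5%, single peaks in 42.6%, 34.5% and 23.8%. Between peaks in hot bins and those in bins with under 10 summits the shares were 55.7% and 41.1% with OTS186935, 44.3% and 34.9% with doxorubicin, and 26.7% and 25.4% with the combination. At a −log10 q of 5 to 10, clusters of 10 or more recurred in 76.6%, 62.7% and 36.0%, against 64.0%, 56.2% and 41.1% for single peaks, and in all 3 lists in 28.1% against 28.5%. At that strength peaks in hot bins recurred in 70.2%, 55.8% and 36.7%, against 67.5%, 62.1% and 48.2% in bins with under 10 summits, and in all 3 lists in 25.6% against 35.7%.

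Among strong peaks, those at gene starts recurred most often of the 4 places compared. Of DMSO peaks with a −log10 q of 5 to 10, those within 1 kb of a start (831 peaks) recurred in 76.8% under OTS186935, 66.9% under doxorubicin and 52.5% under the combination, and those elsewhere in a gene body (8636 peaks) in 59.9%, 51.1% and 35.9%. Peaks outside genes recurred in 65.0%, 55.7% and 40.9%, and those within 1 kb of a gene end in 64.3%, 56.2% and 36.0%. In all 3 lists at once, 42.2% were found at starts, 22.3% in bodies, 27.7% outside genes and 25.0% at ends. At a −log10 q of 2 to 5 the shares in all 3 lists were 14.0% at starts and 8.00% in bodies, and peaks at ends recurred more often than those at starts in the doxorubicin list, 38.0% against 35.8%. Over all strengths, peaks at starts were also wider than those elsewhere in bodies, with medians of 548 and 462 bp, and the part of width in this was not tested.

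**Figure D5:**
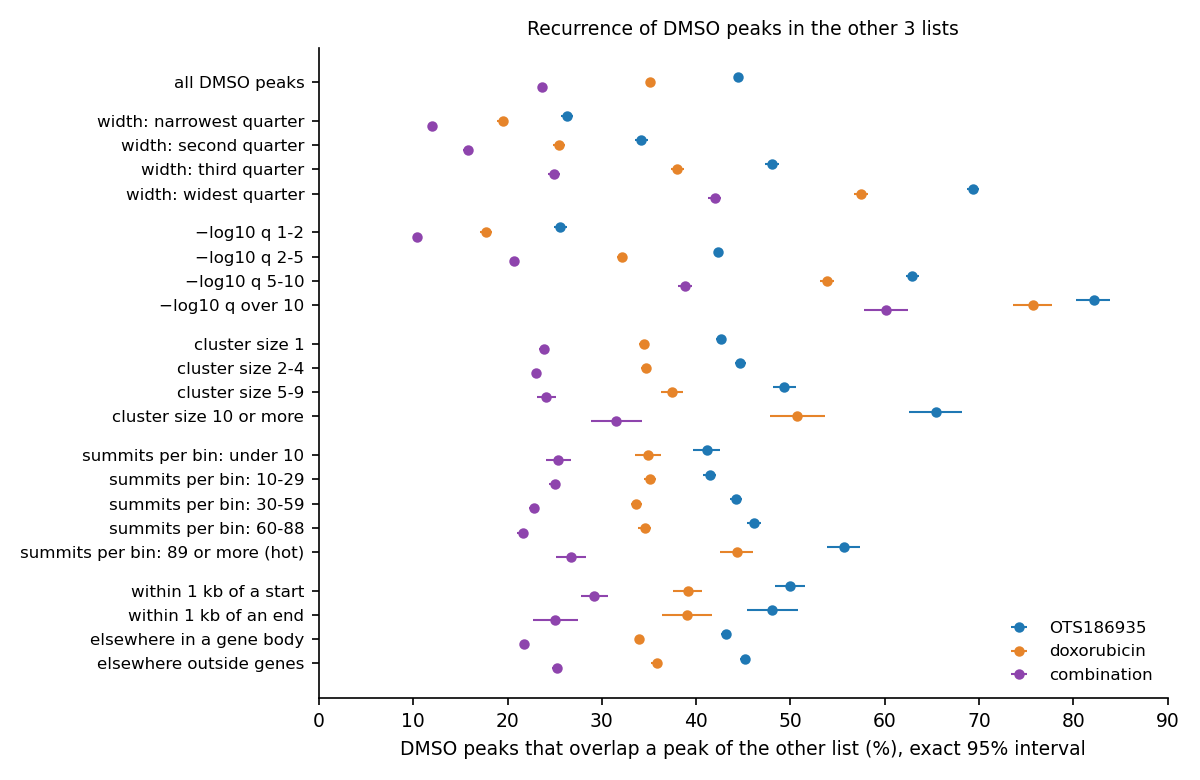
Share of DMSO peaks that overlap a peak of the OTS186935, doxorubicin or combination list by at least 1 bp, over all peaks and by width, −log10 q, cluster size, summits per 1 Mb bin and place relative to genes, with exact 95% intervals. The widest spread is by strength, with 25.6% at a −log10 q of 1 to 2 and 82.2% above 10 for OTS186935.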

How the data were processed

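γH2AX ChIP-seq peak lists of 4 SK-UT1 libraries were used, 1 per condition. MACS2 2.2.7.1, with Bowtie2 2.4.2, bedtools 2.30.0 and Picard 2.25.3, is named per the submitters' processing notes, as is the build hg38; what each did, the calling options, an input control and read depth are not stated there. The deposited rows, in the format MACS2 writes, hold positions, a summit, a score, a fold (a ratio to local background) and −log10 p and q values, all the authors' own. The DMSO list had 76870 rows, of which 90 lay off chromosomes 1 to 22 and X.

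Overlapping or touching rows were merged, keeping the highest fold and −log10 q and the summit of the strongest row. Pileup and background were solved from fold, as pileup + 1 over background + 1, and the Poisson −log10 p. The smallest −log10 values fix what could be called, and the depth behind each peak is its pileup. Clusters, bins and genes were counted by summit, with protein-coding extents from RefSeq (GRCh38.p14) and strand from its promoter table (79.2% of genes). Shares have Clopper-Pearson and counts exact Poisson intervals at 95%. No test was run, as each condition had 1 library.

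The rule named the 10 hottest bins and largest clusters, the 10 widest peaks, the 15 densest genes and 5 per length class, and up to 4 genes per list. The members and lists were chosen with earlier results of these data known. Python 3.11.15, numpy 2.4.6, pandas 2.3.3, scipy 1.17.1 and bedtools 2.31.1 were used, and the counting was tested on simulated lists. Alternatives were stricter peaks, other gaps, bins, percentiles, overlaps and length minimums.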

Additional observations from a re-analysis of the deposited data

How the results depend on the processing

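Of 63 alternative values of 15 results, 39 moved by less than the limit set for them and 24 moved further. For shares the limit was the counting interval of the main value, and for other values it was 1.5-fold. That interval is wide for 30 hot bins, whose shares all stayed inside, and narrow for 72858 peaks, whose recurrence shares all moved. The 39 and 24 therefore depend on the numbers counted and do not measure robustness alone. Only the rho with gene number could change sign, and it did not. With −log10 q of 5 or more, there were 18655 DMSO peaks, clusters of 5 or more held 1.73% of them, the variance of bin counts over their mean was 7.25 and 30.7% of genes had a summit; with fewer peaks each is lower by construction. Clusters of 5 or more held 0.294% with a gap of 5 kb, 41.2% with 20 kb and 14.2% when every row was counted. The variance over mean was 10.7 in bins of 0.5 Mb and 32.3 in bins of 2 Mb. With any overlap of the peak, 68.7% of genes were hit. Recurrence with OTS186935, doxorubicin and the combination was 37.6%, 28.3% and 18.4% at a reciprocal overlap of 50%, 26.5%, 14.1% and 6.56% for peaks with −log10 q of 5 or more in every list, 42.9%, 40.3% and 35.8% with lists of equal length (29213 peaks each), and 45.2%, 35.8% and 24.2% with peaks within 1 kb joined. Differences between lists were smaller at equal length, where the DMSO list was cut to its strongest peaks as well. Hot bins stayed 62.1 to 73.3% terminal, and the rho with gene number stayed between 0.618 and 0.748. None of the 15 densest genes kept its place with a minimum of 20 kb, which removes all of them, or with −log10 q of 5 or more, where the cause was not tested. No paired analysis was possible because each condition had 1 library and no test was run. Depth limits the weak peaks most, since the median DMSO pileup was 8 fragments.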
